A study of Rattus norvegicus with 12 samples.

Results

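The exon-level arrays of a rat beta-cell line were used to ask in which genes single stretches of a transcript changed apart from the rest of the gene when 2 clones carrying an islet amyloid polypeptide (IAPP) transgene were set against a control clone. INS1E is a clonal insulin-secreting line of rat origin. The hIAPP clone was stably transfected with human IAPP, the rIAPP clone with rat IAPP, and the control clone with the plasmid pcDNA3. All 3 clones grew in RPMI with 11.1 mM glucose and geneticin, which the control clone received as well, and cells were collected after 3 days. Each clone was measured on 2 arrays, a and b, so 4 transfected arrays were pooled against 2 control arrays. Each group is 1 clone, so the transgene and the clone cannot be told apart, and the labels do not say whether a and b were separate cultures. The p-values therefore measure the spread between these arrays, which within a clone may be technical. In the pooled test that spread also holds the difference between hIAPP and rIAPP.

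Members were chosen by level and annotation with a rule that used no difference between the clones, though earlier results of these data were known. A probe set, a small group of array probes that reads 1 stretch of a transcript, was a member if it had 1 gene symbol, if its mean over the 6 arrays reached the median mean of all probe sets (8.78 on the log2 scale), and if its gene had at least 4 such probe sets. This left 86763 of 220231 probe sets, in 7982 genes with 4 to 92 member probe sets each (median 9). Both the probe set just below the level limit and the one just inside it had a mean of 8.78. The mean counts 4 transfected and 2 control arrays, so a probe set bright in 1 group alone could pass. Some called below were under 8.78 on both controls and passed through the transfected arrays. Plxdc1 17660683, Cd6 17640571, Derl3 17757827 and Ngfr 17660366 were among these. So were Clasp2 17848428, Alk 17814173, Tgm2 17778949, Pcsk1 17734844, Trpm2 17754215, Rad50 17656133, and Tnfrsf11b 17837307 and 17837310. The part of the level limit in the calls of such probe sets was not tested. Sv2c 17744435 was under it on all 4 transfected arrays and passed through control. No source used here says which exon a probe set lies in. Probe sets are therefore ordered below by their number on the array, and that order is not claimed to be the order along the transcript.

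Most mammalian genes give rise to several transcripts, through alternative promoters, through exons that are included or skipped, and through alternative ends. RNA-binding proteins such as the SR, hnRNP, RBFOX, CELF and MBNL families steer the choice of exons, and scaffold, adhesion and channel genes are well-known targets in excitable and endocrine cells. IAPP itself is a peptide hormone stored and released with insulin, and the human form aggregates readily while the rat form does not. A change in the choice of promoter or exon appears on an array as a probe set that departs from the other probe sets of its gene. That departure was measured as relative use, the log2 value of a probe set minus the median of the other member probe sets of its gene on the same array. Overall level is the median of all member probe sets of a gene.

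The arrays carried the markers of beta cells in all 3 clones. Pearson's r over the member probe sets was 0.981 to 0.982 between arrays of 1 clone and 0.948 to 0.969 between clones. All 18 beta-cell markers on the array, of 20 listed, lay at or above the median level, and their median level was 12.65 to 12.86 on the transfected arrays and 12.87 to 12.90 on the control arrays. Of the listed markers on the array, 1 of 10 for other islet cells, 2 of 14 for acinar and ductal cells, 0 of 10 for leukocytes and 1 of 9 for fibroblasts and endothelium lay at or above the median level. The 1 for other islet cells was Gcg, the glucagon gene. It was at 14.10 and 14.12 in hIAPP, 13.96 and 13.96 in rIAPP, and 13.98 and 13.97 in control, above Iapp on every array. The others were Krt7 and Epcam (acinar and ductal) and Thy1 (fibroblasts and endothelium). The 4 probe sets of Iapp had level differences of 0.11 to 0.13 between the pooled transfected arrays and control, and their relative use differed by -0.01 to 0.03, none of them called. The overall level of Iapp was 13.81 and 13.80 in hIAPP, 13.90 and 13.93 in rIAPP, and 13.76 and 13.72 in control. It was 0.06 higher in hIAPP and 0.17 higher in rIAPP than in control, and the pooled difference did not pass (limma adjusted p = 0.316), so these values do not check the transgene labels. A human IAPP sequence was not analysed here.

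Relative use changed at few probe sets. Each array measured a culture in bulk, so fewer cells with a transcript and less of it per cell cannot be told apart. Limma with Benjamini-Hochberg adjustment over all 86763 members called 56 probe sets at an adjusted p under 0.05, which is 0.0645% of those tested. Of these, 28 rose in relative use in the transfected clones (0.0323%) and 28 fell (0.0323%), and at an unadjusted p under 0.05 the same test had 10473 probe sets. The called differences ranged from 0.77 to 2.24 in size, with a median of 1.18, against a median of 0.12 over all members, and their standard errors ran from 0.10 to 0.19. They lay in 43 genes. A Simes p over the probe sets of each gene, adjusted over 7982 genes, called 36 genes (0.451%), of which 33 held a called probe set. By comparison the overall level of 440 genes rose (5.51%) and that of 303 fell (3.8%), and without control a 79 genes and without control b 80 genes were called for overall level. The called probe sets were dimmer than the members as a whole, with a median level of 9.75 against 10.71.

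These calls rested on the 2 control arrays. Without control a, 2 probe sets were called and neither was among the 56, and without control b 59 were called, 20 of them shared. Leaving out a transfected array gave 12 (hIAPP a), 35 (hIAPP b), 27 (rIAPP a) and 18 (rIAPP b). With no filter on level limma called none of 160218 probe sets (lowest adjusted p 0.0953), with 15040 at an unadjusted p under 0.05. Of the 23 probe sets in the 21 named genes described below, none passed without control a (limma adjusted p 0.0547 to 0.34), while 13 passed without control b, and leaving out 1 transfected array kept 8 to 15. No left-out array moved a difference by more than 0.35. The naming rule took only probe sets whose relative values did not overlap, so their sign with 1 array left out was fixed by that choice.

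Dlg2, a scaffold protein of the membrane-associated guanylate kinase family that anchors receptors and channels, had more called probe sets than any other gene, 5 of its 15 members, all lower in relative use. Its probe sets split by number into a group that was lower and a group that was higher. Probe set 17618249 was at 9.19 and 9.11 in hIAPP, 8.97 and 9.17 in rIAPP, and 10.18 and 10.10 in control. The next member by number, 17618253, was at 12.09 and 11.98 in hIAPP, 12.32 and 12.28 in rIAPP, and 11.24 and 11.13 in control. The transfected arrays thus lay below both controls at the first probe set and above both at the second. Relative use of 17618249 fell by 1.86 ± 0.16 (SE, limma adjusted p = 0.00971, 4 against 2 arrays).

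The 6 lowest-numbered members of Dlg2 had level differences of -1.03 to -0.41, and the 9 highest-numbered had differences of 0.62 to 0.98. In all 15 the transfected and control levels did not overlap, as was the case for 33.4% of all members. The pattern ran through the probe sets below the level limit as well. Of the 23 Dlg2 probe sets on the array, the 13 numbered 17618237 to 17618252 were all lower in the transfected clones, with differences of -1.44 to -0.41 and 12 of them without overlap. The 10 from 17618253 to 17618264 were all higher, with differences of 0.62 to 1.90 and no overlap in any. Both clones had it: the median relative difference of the 6 lower members was -1.43 in hIAPP and -1.81 in rIAPP, each against control. Because the 2 groups of probe sets moved in opposite directions, the overall level of Dlg2 depended on which were counted, at 0.83 ± 0.14 over the members (limma adjusted p = 0.0126; 0.102 without control a and 0.125 without control b), 0.18 as a mean of the members (adjusted p = 0.081) and -0.62 over all 23 probe sets (adjusted p = 0.068). Without control a the adjusted p of 17618249 was 0.158, and without control b it was 0.0449.

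In Clasp2, a protein that binds the growing ends of microtubules, the 4 lowest-numbered members were higher in the transfected clones. Probe set 17848428, the first of 30 members, was at 9.24 and 9.21 in hIAPP, 9.49 and 9.28 in rIAPP, and 8.43 and 8.20 in control. All 4 transfected levels lay above both controls, and relative use rose by 1.19 ± 0.12 (limma adjusted p = 0.0216; 0.199 without control a and 0.0937 without control b). The first 4 members had level differences of 0.37 to 0.99, with no overlap in any of the 4. The other 26 had a median difference of -0.24, from -0.91 to 0.45, with 8 of them without overlap, beside 33.4% of all members. Their median level was 10.32 and 10.03 in hIAPP, 10.49 and 10.58 in rIAPP, and 10.62 and 10.51 in control, so rIAPP overlapped control. All 5 dimmer Clasp2 probe sets overlapped between the groups. Among them 17848427, numbered just before the first member, differed by 0.14, and 17848429, numbered among the first 4, by 0.73. The overall level differed by -0.17 ± 0.15 (limma adjusted p = 0.509), by -0.36 in hIAPP and 0.03 in rIAPP, each against control.

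Among called genes whose overall level differed by less than 0.5, the naming rule took 8. Nos3, the endothelial nitric oxide synthase, was called in both directions. Its probe set 17788654 was at 9.13 and 9.47 in hIAPP, 9.43 and 9.42 in rIAPP, and 10.34 and 10.46 in control, and its relative use fell by 1.51 ± 0.12 (limma adjusted p = 0.00971). Its probe set 17788646 was at 10.00 and 10.24 in hIAPP, 9.82 and 10.37 in rIAPP, and 9.14 and 9.20 in control, and its relative use rose by 1.41 ± 0.16 (limma adjusted p = 0.0282). Neither overlapped between the groups, while the other 3 members of Nos3 had level differences of -0.23 to 0.15 that all overlapped. Nos3 was otherwise dim, with 14 of its 19 probe sets below the level limit. Of those 14, 9 were lower and 5 higher in the transfected clones, 2 of them without overlap. The lower probe set passed without each array other than control a (limma adjusted p 0.1 without it), and the higher one passed only without rIAPP a.

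Plxdc1, a transmembrane protein with a plexin domain, had 1 probe set that lay below the rest of the gene in control and level with it in the transfected clones. Probe set 17660683 was at 9.41 and 9.64 in hIAPP, 9.62 and 9.42 in rIAPP, and 7.15 and 7.74 in control, a level difference of 2.08 with no overlap. Relative use rose by 1.83 ± 0.12 (limma adjusted p = 0.00462; 0.0547 without control a). The other 5 members had level differences of -0.18 to 1.17, and overall level rose by 0.46 ± 0.08 (limma adjusted p = 0.012; 0.123 without control a). Of the 9 dimmer Plxdc1 probe sets all were higher in the transfected clones, 5 of them without overlap.

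The remaining 5 genes each had 1 called probe set whose 4 transfected levels lay apart from both controls. Hook2, which links cargo to microtubule motors, had 9.31 and 9.53 in hIAPP, 9.26 and 9.38 in rIAPP, and 10.15 and 10.44 in control, and relative use fell by 1.03 ± 0.10 (limma adjusted p = 0.017). Rad52, a homologous recombination protein, had 9.35 and 9.40 in hIAPP, 9.11 and 9.10 in rIAPP, and 9.61 and 9.87 in control, and relative use fell by 1.05 ± 0.13 (limma adjusted p = 0.0441). These 2 were the ones that fell. Mcm7, a subunit of the replicative helicase, had 10.53 and 10.57 in hIAPP, 10.33 and 10.50 in rIAPP, and 9.28 and 9.38 in control, and relative use rose by 1.08 ± 0.12 (limma adjusted p = 0.0278). Alk, a receptor tyrosine kinase, had 9.74 and 9.70 in hIAPP, 9.79 and 9.79 in rIAPP, and 8.44 and 8.55 in control, and relative use rose by 1.00 ± 0.11 (limma adjusted p = 0.0233). In both the probe set was brighter on all 4 transfected arrays. Of the 17 dimmer Alk probe sets, 16 were higher in the transfected clones, 7 of them without overlap. The 17 had level differences of -0.21 to 1.17, beside 1.26 for the called one. Tgm2, a transglutaminase that cross-links proteins, had 9.60 and 9.66 in hIAPP, 9.33 and 9.27 in rIAPP, and 8.54 and 8.48 in control, and relative use rose by 0.94 ± 0.10 (limma adjusted p = 0.0222). Overall differences in these 5 were -0.08 for Hook2, 0.37 for Rad52, 0.12 for Mcm7, 0.38 for Alk and 0.29 for Tgm2, of which limma called that of Alk (adjusted p = 0.0325; 0.261 without control a). Without control a the limma adjusted p of these 5 probe sets was 0.165 to 0.246, and those of Rad52, Alk and Tgm2 lost their call whichever of the 6 arrays was left out.

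More of the called genes had also changed as a whole, and in many of them 1 probe set stayed behind. Ngfr, the low-affinity neurotrophin receptor, rose overall by 1.71 ± 0.09 (limma adjusted p = 0.000227) and had 3 of 8 probe sets called. Probe set 17660370 was at 10.09 and 10.29 in hIAPP, 10.19 and 10.30 in rIAPP, and 10.31 and 10.39 in control, so the 4 transfected arrays lay just below control. Its relative use fell by 1.91 ± 0.12 (limma adjusted p = 0.00462). Probe set 17660366 of the same gene was at 10.40 and 10.19 in hIAPP, 10.58 and 10.29 in rIAPP, and 6.69 and 7.06 in control, a level difference of 3.49, and its relative use rose by 1.80 ± 0.13 (limma adjusted p = 0.00537). The third, 17660369, fell in relative use by 1.11. On the control arrays 17660370 was thus among the brightest members of Ngfr, and on the transfected arrays among the dimmer ones. Without control a the adjusted p was 0.0547 for 17660370 and 0.0753 for 17660366.

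Itpkb, a kinase that phosphorylates inositol trisphosphate, rose overall by 1.83 ± 0.13 (limma adjusted p = 0.000303). Its lowest-numbered member, 17682565, was at 9.82 and 10.30 in hIAPP, 10.14 and 10.15 in rIAPP, and 10.32 and 10.34 in control. The transfected values lay just below control there, while the 5 members that were not called had level differences of 1.80 to 2.52. Relative use fell by 2.24 ± 0.17 (limma adjusted p = 0.0077; 0.0547 without control a), the largest difference among the 56. A dimmer Itpkb probe set with the number just before it, 17682564, was higher in the transfected clones by 1.67 without overlap. The same was seen in Tmem176b, a membrane protein. Its probe set 17791222 was at 10.18 and 10.51 in hIAPP, 10.47 and 10.39 in rIAPP, and 10.40 and 10.27 in control, an overlap, while overall level rose by 1.68 ± 0.11. Its relative use fell by 1.76 ± 0.15 (limma adjusted p = 0.00971; 0.151 without control a and 0.0559 without hIAPP a).

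2 called genes belong to protein folding and disposal in the endoplasmic reticulum. Sdf2l1, a chaperone partner in the lumen, rose overall by 1.42 ± 0.08 (limma adjusted p = 0.000227). Its probe set 17667238 was at 9.85 and 9.91 in hIAPP, 9.92 and 9.86 in rIAPP, and 9.77 and 9.65 in control, a difference of 0.17, while the 3 uncalled members differed by 1.19 to 1.52. Relative use of that probe set fell by 1.54 ± 0.10 (limma adjusted p = 0.00511; 0.062 without control a), and that of 17667241 rose by 0.81. Derl3, a component of the degradation pathway, rose overall by 1.81 ± 0.14 (limma adjusted p = 0.000539). Its probe set 17757827 was at 10.20 and 9.90 in hIAPP, 9.57 and 9.72 in rIAPP, and 6.97 and 6.77 in control, and rose further than the gene, with a relative difference of 1.30 ± 0.17 (limma adjusted p = 0.0499). That call sat at the threshold and was lost with any 1 of the 6 arrays left out (adjusted p 0.0644 to 0.34). On control its levels lay near the lower quartile of all probe sets (6.86 on control a and 6.84 on control b). Both dimmer Derl3 probe sets were higher in the transfected clones without overlap, by 0.77 and 2.86, beside 2.98 for 17757827. Notch1, a receptor cleaved on ligand binding, rose overall by 1.06 ± 0.16 (limma adjusted p = 0.0101; 0.104 without control a). Its probe set 17770684 was at 10.02 and 9.83 in hIAPP, 9.37 and 9.59 in rIAPP, and 9.80 and 9.72 in control, an overlap, and relative use fell by 1.17 ± 0.10 (limma adjusted p = 0.00971; 0.158 without control a).

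3 genes fell overall while 1 of their probe sets was lower by less, or overlapped between the groups. Sv2c, a synaptic vesicle glycoprotein, fell by 1.73 ± 0.07 overall (limma adjusted p = 3.9e-05). Its highest-numbered probe set, 17744445, was at 9.67 and 9.51 in hIAPP, 9.72 and 9.31 in rIAPP, and 9.43 and 10.05 in control, an overlap, and its relative use rose by 2.09 ± 0.18 (limma adjusted p = 0.0115; 0.0567 without control a and 0.0644 without hIAPP a). Probe set 17744435 of Sv2c was at 8.13 and 8.17 in hIAPP, 7.99 and 8.37 in rIAPP, and 10.78 and 10.71 in control, and fell in relative use by 1.41. All 11 dimmer Sv2c probe sets were lower in the transfected clones without overlap, with differences of -3.08 to -0.88. Gcgr, the glucagon receptor, fell by 2.46 ± 0.08 overall (limma adjusted p = 3.5e-05). Its probe set 17653336 was at 8.67 and 8.48 in hIAPP, 8.90 and 8.90 in rIAPP, and 9.86 and 9.72 in control. That level difference of -1.05 was smaller than the -2.68 to -1.90 of the other 8 members, and relative use rose by 1.45 ± 0.16 (limma adjusted p = 0.0282; 0.225 without control a). Kif5a, a kinesin heavy chain, fell by 0.90 ± 0.10 overall (limma adjusted p = 0.00257). Its probe set 17836504 was at 10.02 and 9.80 in hIAPP, 10.26 and 10.17 in rIAPP, and 9.98 and 10.09 in control, an overlap, and relative use rose by 1.19 ± 0.12 (limma adjusted p = 0.017; 0.199 without control a).

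In 3 further genes a probe set moved in the direction of its gene and further than it. Pcsk1, the convertase that begins the cleavage of proinsulin, had an overall difference of 0.97 ± 0.28 that did not pass (limma adjusted p = 0.0745). Its probe set 17734844 was at 10.60 and 10.44 in hIAPP, 9.40 and 9.42 in rIAPP, and 7.51 and 7.69 in control. It lay higher in hIAPP than in rIAPP and higher in both than in control, as did the overall level (1.40 in hIAPP and 0.54 in rIAPP, each against control). Relative use rose by 1.43 ± 0.15 (limma adjusted p = 0.0216; 0.225 without control a). Trpm2, a calcium-permeable channel opened by ADP-ribose, rose overall by 1.37 ± 0.24 (limma adjusted p = 0.0154; 0.125 without control a). Probe set 17754215 was at 11.58 and 11.87 in hIAPP, 10.95 and 11.15 in rIAPP, and 8.44 and 8.73 in control, and relative use rose by 1.42 ± 0.15 (limma adjusted p = 0.0219; 0.199 without control a). Another member of the gene, 17754206, was at 12.67 and 12.69 in hIAPP, 12.66 and 12.61 in rIAPP, and 12.67 and 12.74 in control, which overlapped. Its relative difference of -1.48 was not called (limma adjusted p = 0.083). The level difference of 17754215 was 2.80, and that of the members that were not called reached 3.22. All 8 dimmer Trpm2 probe sets were higher in the transfected clones, by 0.24 to 4.08, 7 of them without overlap. The largest of these was 17754214, numbered next to 17754215.

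Cd6, a receptor best known from lymphocytes, rose overall by 1.15 ± 0.07 (limma adjusted p = 0.000281). Its probe set 17640571 was at 9.51 and 9.65 in hIAPP, 9.71 and 9.98 in rIAPP, and 7.01 and 7.18 in control, and relative use rose by 1.43 ± 0.14 (limma adjusted p = 0.0172; 0.199 without control a). The first 3 members of Cd6 had level differences of -0.13 to 0.47, against 1.92 to 2.62 for the fifth to the seventh. Of the 7 dimmer Cd6 probe sets, 3 were higher, all without overlap, and 4 were lower, 1 of them without overlap. The 3 that were higher lay beside or among the first 3 members by number: 17640561 by 1.04, 17640564 by 0.88 and 17640566 by 0.67. None of the 10 leukocyte markers on the array lay at or above the median level, and their median level was 6.24 to 6.49 on the transfected arrays and 6.18 to 6.32 on the control arrays.

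Called genes were concentrated among genes whose overall level differed most. Of genes with an overall difference under 0.25, 4 of 6310 (0.0634%) were called for relative use, and of those between 0.25 and 0.5, 4 of 1263 (0.317%). Of genes between 0.5 and 1, 12 of 327 (3.67%) were called, and of genes at 1 or more, 16 of 82 (19.5%). Among the 39 called probe sets in genes with an overall difference of at least 0.5, 26 had a relative difference opposite in sign to the gene, as where 1 probe set stayed level while its gene rose. In 9 of these 26 the probe set's own levels overlapped between the groups, in 8 they were apart in the direction of the gene but by less, and in 9 they were apart in the other direction. The remaining 13 moved further than their gene. All 17 called probe sets in genes with an overall difference under 0.5 had levels that did not overlap, as did 33.4% of all members. That count of 17 is largely set by how they were called, on relative use in genes that changed little. Relative values did not overlap in 22.5% of all members. When only genes with an overall difference under 0.5 were tested, 2 probe sets passed. The part of the overall difference, and of the lower level of the called probe sets, in these calls was not tested. Called genes also had fewer of their probe sets above the level limit, a median of 61.2% beside 88.2% over all member genes.

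No difference in relative use between the transfected clones passed the test. In limma with 3 clone means, hIAPP minus rIAPP, 0 of 86763 probe sets were called (0%), with a lowest adjusted p of 0.127 and 5257 probe sets at an unadjusted p under 0.05, while limma's diffSplice, with 1 spread per gene, called 253. Of the 56 probe sets called in the pooled test, 6 had an unadjusted p under 0.05 between hIAPP and rIAPP. Dlg2 was among them: its 17618244 had levels of 9.22 and 9.33 in hIAPP and 9.11 and 9.02 in rIAPP, and its relative use was 0.54 ± 0.13 higher in hIAPP (adjusted p = 0.621). Its 17618249 and 17618246 were also among them, higher in hIAPP by 0.41 ± 0.12 (limma adjusted p = 0.709) and 0.37 ± 0.15 (0.814). The rest were in Col3a1, Derl3 and Gcgr. A p that misses the threshold in 2 against 2 arrays does not show that the clones were alike.

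Of 59 splicing regulators none passed for relative use, and the share called for overall level was near that of all members. Limma called 0 of 59 genes for relative use (lowest adjusted p 0.104), with 5 at an unadjusted p under 0.05 and 4 called by the diffSplice F test, beside 36 of 7982 members. In overall level 3 rose and 4 fell, beside 5.51% and 3.8% of all members. The nuclear RNA-binding protein Rbfox3, which binds a short motif beside alternative exons, was at 9.64 and 9.60 in hIAPP, 9.18 and 9.28 in rIAPP, and 10.55 and 10.57 in control, and fell by 1.13 ± 0.14 (limma adjusted p = 0.00455). Celf4 was at 10.20 and 10.07 in hIAPP, 9.95 and 9.69 in rIAPP, and 10.75 and 10.62 in control, and fell by 0.70 ± 0.14 (limma adjusted p = 0.0202). Celf5 fell by 0.58 and Celf2 by 0.35, while Celf1 (0.12, limma adjusted p = 0.315), Celf3 (-0.23, adjusted p = 0.157) and Celf6 (-0.14, adjusted p = 0.483) were not called. Tra2a, an SR-like activator of exon inclusion, rose by 0.53 ± 0.09 (limma adjusted p = 0.0145), Srsf9 by 0.45 and Qki by 0.43. The median overall difference of the 59 was 0.04, beside 0.03 over all members. Without control a none of the 7 kept its call (adjusted p 0.0691 for Rbfox3), and without control b Tra2a did (adjusted p 0.0266). Qki also lost its call without hIAPP b (adjusted p 0.0709), rIAPP a (0.081) and rIAPP b (0.0862), while the other 6 were called without each transfected array.

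The other 8 lists held 0 to 2 genes called for relative use, where 0.451% of all members were called (36 of 7982). All 9 lists were chosen with earlier results of these data known. The part of that choice in the list counts was not tested. Relative use was called in 1 of 35 synaptic scaffold and active zone genes (Dlg2), 1 of 51 exocytosis and granule genes (Pcsk1), 1 of 46 ion channel and calcium genes (Trpm2), and 1 of 17 beta-cell identity genes (Gcgr). It was also called in 1 of 40 insulin and growth-factor signalling genes (Notch1), 2 of 62 cytoskeleton and motor genes (Clasp2 and Kif5a), and 2 of 48 endoplasmic reticulum folding and stress genes (Sdf2l1 and Derl3). None of 42 adhesion genes was called by limma at gene level (lowest adjusted p 0.0501), with 12 at an unadjusted p under 0.05 and 11 called by the diffSplice F test, and 1 probe set of the ephrin receptor Epha5 passed. Overall level was called more often, in 5.51% of all members as higher and in 3.8% as lower. It rose in 12 of the 48 endoplasmic reticulum genes and fell in none, and it rose in 8 and fell in 1 of the 40 insulin and growth-factor genes. It rose in 6 and fell in 6 of the 42 adhesion genes, rose in 6 and fell in 4 of the 35 scaffold genes, and rose in 5 and fell in 9 of the 46 channel and calcium genes. In the exocytosis list 1 rose and 4 fell, in the cytoskeleton list 2 rose and 5 fell, and in the beta-cell list 1 rose and 2 fell. These counts shrank without either control array. Without control a, 4 endoplasmic reticulum genes and 2 insulin and growth-factor genes were called higher and none lower, and without control b 4 and 3. In the other 6 lists at most 1 gene was called higher and at most 2 lower without either control, and none of the scaffold genes was called without control b. The median size of the relative difference was 0.10 to 0.15 in the 9 lists and 0.12 over all members.

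Some genes had a stretch of members next to each other in number order that departed together. These were picked after their values were seen, as runs of at least 3 members adjacent by number, each with relative values that did not overlap and a difference of at least 0.5 in 1 direction. There were 16 such runs in 15 genes (0.188% of 7982), among them Dlg2, Clasp2, Cd6 and Trpm2. The others, with no gene-level call, were Baz2b, Camta1, Col6a6, Gorasp1, Gpsm1, Myo1f, Ptpn3, Sdk2, Sh2d3c, Tmem219 and Trpm5. The 4 described next were chosen after their values were seen, and they get no test.

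Gpsm1 modulates G-protein signalling. Over its last 5 of 15 members, the median level was 11.14 and 11.22 in hIAPP, 11.93 and 11.96 in rIAPP, and 10.46 and 10.51 in control. All 5 were apart, with differences of 0.81 to 1.11, and rIAPP lay above hIAPP. The median of the first 10 was 10.36 and 10.26 in hIAPP, 10.30 and 10.07 in rIAPP, and 10.43 and 10.48 in control, so the transfected arrays lay just below control there.

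In Trpm5, a cation channel opened by calcium, the first 5 of 9 members had a median of 10.60 and 10.73 in hIAPP, 12.70 and 12.55 in rIAPP, and 9.38 and 9.48 in control. rIAPP was highest and control lowest at each of the 5. The other 4 had a median of 9.69 and 9.67 in hIAPP, 9.87 and 9.81 in rIAPP, and 9.66 and 10.13 in control, which overlapped. Of 15 dimmer Trpm5 probe sets, 8 were higher and 7 lower in the transfected clones, 3 of them without overlap.

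Sh2d3c, an adaptor with an SH2 domain, showed the reverse. Its last 4 of 13 members had a median of 11.74 and 11.78 in hIAPP, 11.71 and 11.80 in rIAPP, and 11.58 and 11.62 in control. The other 9 had a median of 9.21 and 9.13 in hIAPP, 10.50 and 9.25 in rIAPP, and 11.23 and 10.21 in control, an overlap through rIAPP a and control b, with single differences of -1.88 to -0.28. In Camta1, a calmodulin-binding transcription activator, members 13 to 17 of 18 differed by 0.02 to 0.57 in level, 2 of the 5 without overlap. Their median was 9.20 and 9.44 in hIAPP, 9.14 and 9.44 in rIAPP, and 8.68 and 9.39 in control, an overlap. The other 13 had a median difference of -0.56, from -1.04 to 0.01.

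A further 15 called genes lay outside the naming rule, and the ones given here were chosen after their values were seen. Postn, a matricellular protein, had 1 called probe set at 10.30 and 9.88 in hIAPP, 9.39 and 9.81 in rIAPP, and 10.12 and 9.79 in control, while its overall level rose by 1.24 (limma adjusted p = 0.00625). Tnfrsf11b, the decoy receptor osteoprotegerin, rose overall by 2.50 ± 0.31 (limma adjusted p = 0.00455), and of its 6 members 17837307 rose by 1.16 and 17837310 fell by 1.47 in relative use. Gabrd, a GABA-A receptor subunit, fell by 1.17 overall while its probe set 17813234 was at 12.61 and 12.71 in hIAPP, 12.36 and 12.49 in rIAPP, and 12.43 and 12.67 in control. Myo15a, an unconventional myosin, fell by 1.33 overall while 17646456 differed by 0.04. The called probe sets of Postn, Gabrd and Myo15a overlapped between the groups in genes that changed overall. The fibroblast growth factor family member Fgf12, Letm2 and Igsf21 were called at gene level with no single probe set under 0.05, their lowest limma adjusted p being 0.0512 in each.

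In 10 genes there was a called probe set without a gene-level call: Atp13a1, Bms1, Cttn, Epha5, Grhl1, Pex5, Ppip5k1, Rad50, Tlcd1 and Trappc9. Cttn, the actin-binding protein cortactin, had 17638824 at 10.49 and 10.24 in hIAPP, 10.42 and 10.53 in rIAPP, and 9.51 and 9.42 in control, with an overall difference of 0.03. Pex5, the receptor that imports peroxisomal enzymes, had 17794698 at 11.30 and 10.99 in hIAPP, 11.04 and 10.66 in rIAPP, and 11.73 and 11.78 in control. Rad50, a subunit of a DNA break repair complex, had 17656133 at 9.19 and 9.16 in hIAPP, 9.12 and 9.25 in rIAPP, and 8.46 and 8.40 in control. In all 3 the transfected and control levels did not overlap. Cttn and Rad50 rose in relative use, by 0.86 and 0.85, and Pex5 fell by 1.03.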

How the data were processed

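The authors deposited log2 values for each probe set, made with RMA (background correction, normalization between arrays and a summary of the probes) in Affymetrix Expression Console, per the submitters' processing notes. Versions, build and annotation were not given in the sources used here. Symbols came from the platform annotation: 166557 of 220231 probe sets had 1 symbol, 1631 had several and 52043 had none, and 2837 of 17309 symbols were updated through the RefSeq GRCr8 gene table. No depth exists for arrays, and 2 arrays per clone limit the precision.

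From these values relative use and overall level were computed as the report defines them. Limma 3.58.1 in R 4.3.3 (lmFit and eBayes) compared 4 transfected with 2 control arrays, without covariates, with 4 residual and 4.67 prior degrees of freedom, and Benjamini-Hochberg adjustment ran over all 86763 probe sets or 7982 genes. Calls were made at an adjusted p under 0.05. Between hIAPP and rIAPP a fit with 3 clone means was used. The test was tried on simulated data, and limma's diffSplice was kept as an alternative. Same-lettered arrays did not deviate together (r of relative use between clones -0.04, -0.03 and 0.01), so letters were not used as pairs.

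Members and lists were chosen with earlier results of these data known. Named genes were, among called genes without overlap of relative values, up to 8 that fell and 8 that rose with an overall difference under 0.5, 4 and 4 at 0.5 or more, genes with at least 3 called probe sets of 1 direction, and up to 3 per list. Sequences and exon positions of the probe sets were not used here. Alternatives covered left-out arrays, a replicate block, the level filter, the minimum of probe sets, the prior, the centring and the test.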

Additional observations from a re-analysis of the deposited data

Results flagged for a closer look

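Among the 56 called probe sets, 1 had a transfected array far from the other 3. Relative use of Sv2c probe set 17744435 was -0.76 and -0.75 in hIAPP and -0.75 and -0.44 in rIAPP, so rIAPP b lay apart by 0.952 of the whole range, above Dixon's critical value for 4 samples. Chance flags about 1 in 20 groups, and 56 were examined. All 4 values were below both control arrays.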

How the results depend on the processing

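The number of called probe sets depended on the processing. Leaving out 1 array gave 2 to 59 probe sets against 56, 9 to 28 genes for relative use against 36, 79 to 687 genes for overall level against 743, and 0 to 5 probe sets between hIAPP and rIAPP against 0. The replicate block, with letters as pairs, gave 22 probe sets, 14 genes and 406 genes for overall level. Without the level filter there were 0, 0 and 441, also 0 and 0 with identical probe sets kept once, and with the 75th percentile 461 genes for overall level and 3 probe sets between the transfected clones. At least 8 probe sets a gene gave 33, 22 and 467. An intensity trend with a robust prior gave 85, 59 and, between the transfected clones, 8. A fit with 3 clone means gave 92, 65 and 2067, and means of members 1258 for overall level. Only genes under 0.5 overall gave 2 and 2. DiffSplice called 995 probe sets (t test), 567 genes (F test), 778 genes (Simes) and 253 probe sets between the transfected clones. The overall level of Dlg2 changed sign, to -0.62, without the level filter, where its dimmer probe sets enter. Identical probe sets kept once and leaving out genes with separate number runs, both chosen after seeing the data, gave 71 and 75 probe sets. None of the 23 named relative differences changed sign, which for left-out arrays follows from how they were chosen. Arrays hold no count of reads, so depth sets no limit here; dim probe sets do.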
